A study of Mus musculus with 9 samples.

Results

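Liver X receptors (LXRs) and the genes of cholesterol efflux were measured in the kidney cortex of diabetic mice treated with the Chinese herbal Tang-shen Formula (TSF), of diabetic mice given saline and of lean mice, on 9 Affymetrix arrays. The set held 8 genes chosen by name: the receptors Nr1h2 and Nr1h3, the cholesterol transporters Abca1 and Abcg1, the lipid carrier Apoe, the ubiquitin ligase Mylip, the lipogenic transcription factor Srebf1 and the phospholipid enzyme Lpcat3. Of the 8, 7 had a probe set with a single gene symbol in the platform annotation, and all 7 were among the 17740 genes tested; each of the 7 had 1 such probe set. Nr1h2, the gene of LXR beta, was not analysed here, because no probe set carried its symbol in that annotation.

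The db/db+TSF group consisted of C57BLKS/J db/db mice that received TSF at 2.4 g/kg/day by gavage over 12 weeks. The db/db group consisted of mice of the same genotype gavaged with saline over the same time. The db/m group consisted of C57BLKS/J db/m mice, for which the labels name no gavage. Mice homozygous for db lack the signalling form of the leptin receptor in every tissue and become obese and diabetic, whereas db/m mice carry 1 mutant copy and stay lean. All mice were males of 20 weeks on 1 strain background, and each group was represented by 3 arrays labelled as biological replicates. The labels put 9 mice in each db/db group and do not say whether an array held RNA of 1 mouse or of several, so p-values measure the spread between arrays.

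LXRs are nuclear receptors switched on by oxysterols, which accumulate when a cell is loaded with cholesterol. Paired with a retinoid X receptor (RXR), they bind DNA elements made of a direct repeat with a short spacer and raise genes that move cholesterol out of the cell, limit its uptake and build fatty acids. In kidney, ABCA1-dependent efflux has been studied mainly in podocytes, tubule cells and macrophages, and lipid accumulation is a known feature of diabetic kidney.

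The upstream sequences of 3 of these genes are shown because they hold letters that match a known LXR element, or belong to the gene with the clearest difference. They were taken from the RefSeq promoter table of GRCm38.p6, which held 12 windows for 7 of the 8 genes, and only the 250 bases before each annotated start were used. The motif searched on both strands was GGTTA, then 5 bases of any kind, then GGTCA. It was written from the known Abca1 and Srebf1 elements, so that finding it there is no independent result. Its 5 free bases describe the search string and not the length of the spacer in the element. The motif occurred in 15 of 32851 windows of 250 bases, or 0.0457%. Capitals mark that motif, which here reads on the opposite strand, in Abca1 (minus strand, chr4:53159896-53160145; motif 67 to 53 bases before the start) and in the most downstream of the 3 Srebf1 starts (minus strand, chr11:60210472-60210721; motif 182 to 168 bases before the start). In Apoe (minus strand, chr7:19699189-19699438) capitals mark only the shorter core GGTCA, which lies inside the longer motif and occurred in 35.2% of all windows.
Abca1: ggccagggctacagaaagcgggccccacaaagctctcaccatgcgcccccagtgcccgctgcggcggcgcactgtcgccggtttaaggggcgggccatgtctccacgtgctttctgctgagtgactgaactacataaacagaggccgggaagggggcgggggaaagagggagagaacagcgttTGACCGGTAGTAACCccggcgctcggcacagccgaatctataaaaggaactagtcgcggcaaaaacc
Srebf1: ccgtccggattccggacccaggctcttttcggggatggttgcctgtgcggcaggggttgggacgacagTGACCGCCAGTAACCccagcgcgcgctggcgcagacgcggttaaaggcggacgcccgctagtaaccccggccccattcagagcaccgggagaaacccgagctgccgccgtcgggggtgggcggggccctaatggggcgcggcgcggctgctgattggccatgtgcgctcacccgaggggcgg
Apoe: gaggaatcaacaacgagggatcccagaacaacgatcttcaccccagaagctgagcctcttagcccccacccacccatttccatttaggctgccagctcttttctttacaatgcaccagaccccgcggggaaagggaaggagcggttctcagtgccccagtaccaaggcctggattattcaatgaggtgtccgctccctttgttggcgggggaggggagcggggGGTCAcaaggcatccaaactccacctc
The windows of Nr1h2, Nr1h3, Mylip and Lpcat3, the other 2 starts of Srebf1 and the other 2 of Apoe held neither the motif nor its core. A match is a string of letters and says nothing of binding in these kidneys.

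Values are given as log2(intensity + 1) of the deposited intensities, and differences as log2 fold changes on that scale with the standard error (SE) of limma's moderated fit. A gene was said to rise or fall only where its Benjamini-Hochberg adjusted p over all 17740 genes lay under 0.05. Array medians ran from 10.3 to 11.2 intensity units, and levels of different genes were not compared, since probe sets differ in brightness. In 1 array, db/db replicate 3, the 7 neutrophil markers tested averaged 5.24, against 2.99 and 3.09 in the other db/db arrays. Results of the LXR genes that rest on this array are given without it, while marker results include it. Adipocyte markers averaged 6.02 in db/m replicate 2, against 5.10 and 5.34 in the other lean arrays. On the second principal component over all genes tested, db/db+TSF replicate 2 lay at -19.9, against 1.13 and -7.46 for the other treated arrays.

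How saline-treated diabetic cortex differs from lean cortex was read from the db/db and db/m arrays. Apoe rose by 1.70-fold in db/db, the only one of the 7 genes past the threshold. Abca1, Mylip, Abcg1 and Srebf1 also had every db/db array above every db/m array, with adjusted p-values of 0.076, 0.0623, 0.0985 and 0.131 in limma, and did not pass. The receptor gene Nr1h3 lay on the other side, with every db/db array below every db/m array, and Lpcat3 overlapped. Thus 1 of 7 rose and 0 fell in limma, where 0.592% of all genes tested rose and 0.462% fell. At an unadjusted p under 0.05 the count was 6 of 7, against 13.9% of all genes. The groups did not overlap in 6 of 7 (18.6% of all genes), in 5 with db/db above and in 1 with db/db below, against 10.4% and 8.28% of all genes. The difference was above 0 in 5 of 7 and in 52.2% of all genes. The median difference of the 7 was 0.47, and that of all genes tested was 0.01. The 7 were chosen with earlier results of these data known, so counts above the share of all genes do not test the set in any comparison. These are bulk tissue values, in which fewer cells of a type and less RNA per cell cannot be told apart.

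**Figure D1:**
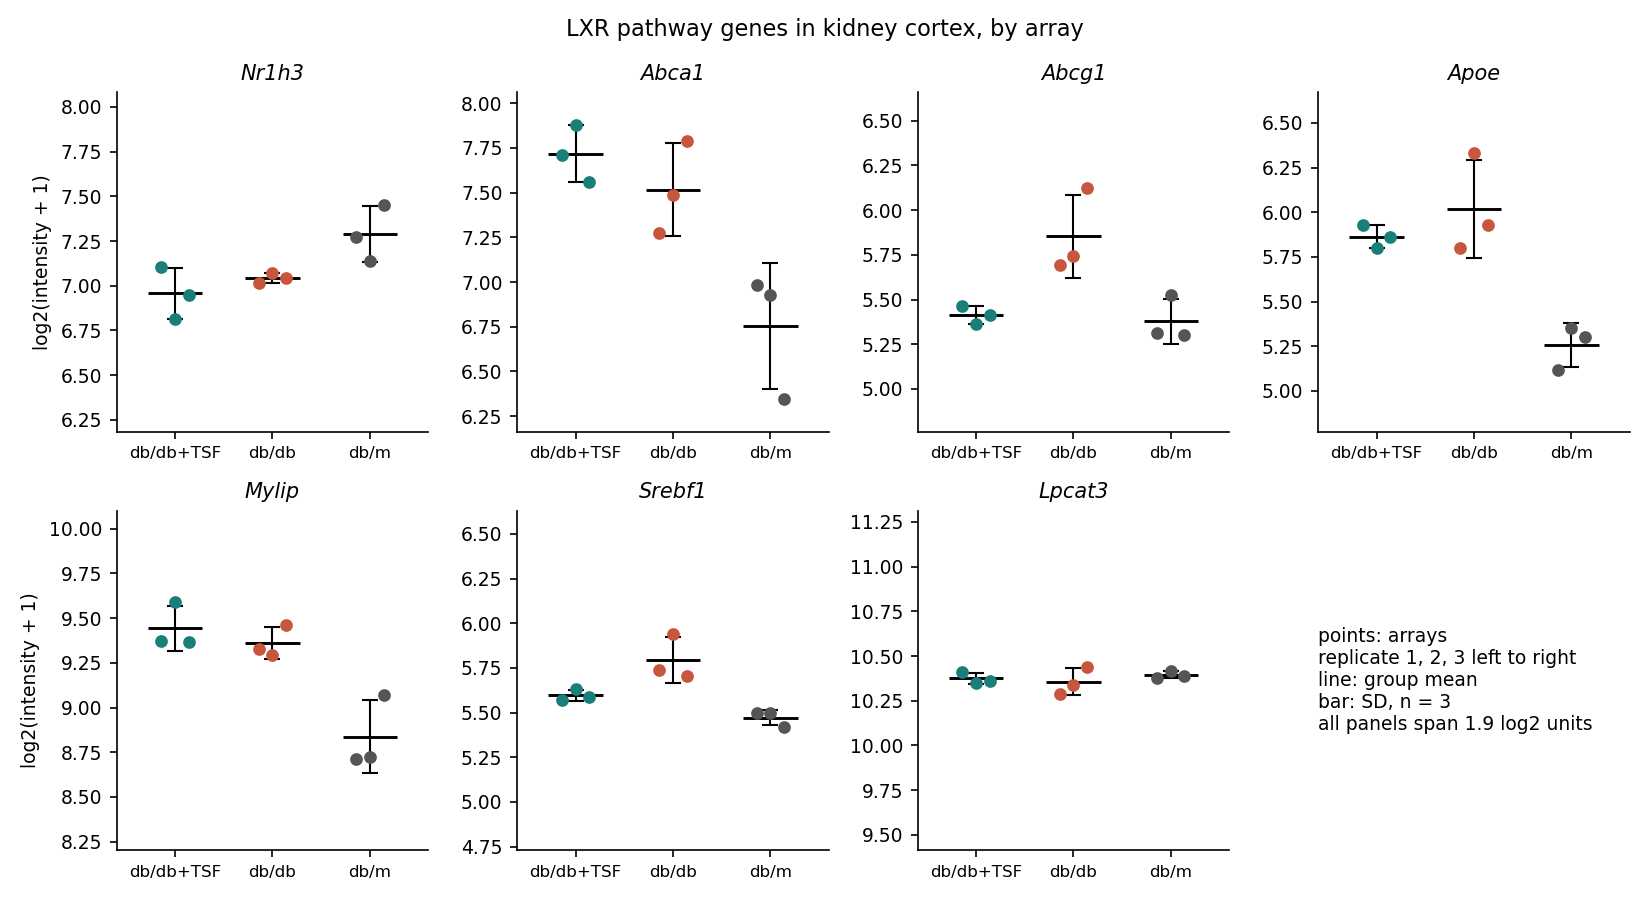
Level of each gene in each array, as log2(intensity + 1) on the vertical axis, for db/db+TSF, db/db and db/m from left to right; points are arrays, lines group means and bars SD (n = 3). Abca1, Apoe and Mylip lie higher in both db/db groups than in db/m, Abcg1 lies highest in saline-treated db/db, and Lpcat3 differs little. The mean of Nr1h3 is lowest in db/db+TSF, whose arrays overlap those of db/db.

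Apoe encodes apolipoprotein E, which accepts cholesterol from cells and is raised by LXRs in macrophages and fat. It measured 5.80, 6.33 and 5.93 in the db/db arrays, against 5.12, 5.35 and 5.30 in the db/m arrays. The lowest db/db array stood above the highest db/m array by more than the spread within db/m. The difference was 0.76 (SE 0.13; limma adjusted p = 0.0233, db/db above db/m in all arrays). Leaving out db/m replicate 1 (limma adjusted p = 0.0874), db/m replicate 3 (0.0624) or db/db replicate 3 (0.0588) ended the call, while the difference without db/db replicate 3 was 0.81.

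Abca1 encodes the transporter that passes cholesterol and phospholipid to lipid-poor apolipoprotein A-I, and its upstream window holds the motif printed above. It measured 7.27, 7.49 and 7.79 in db/db, against 6.99, 6.93 and 6.35 in db/m. The groups did not overlap, and db/m replicate 3 stood well below the other lean arrays. The difference was 0.76 (SE 0.18), as large as that of Apoe but with a wider spread, and it was 0.56 without db/m replicate 3 (adjusted p = 0.146 by limma).

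Abcg1 encodes the transporter that passes cholesterol to mature high-density lipoprotein particles. It measured 5.69, 5.74 and 6.12 in db/db, against 5.31, 5.52 and 5.30 in db/m. The highest value belonged to db/db replicate 3, the array with high neutrophil markers. The difference was 0.47 (SE 0.12), and without that array it was 0.34 (limma adjusted p = 0.237); the part of neutrophils in it was not tested.

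Mylip encodes the ubiquitin ligase, also called IDOL, that marks the LDL receptor for degradation and so limits cholesterol uptake. It measured 9.33, 9.29 and 9.46 in db/db, against 8.71, 8.73 and 9.07 in db/m. The db/m array nearest to db/db was replicate 3, the same array that was low for Abca1. The difference was 0.53 (SE 0.12). Without db/m replicate 3 Mylip passed, with a difference of 0.64 (limma adjusted p = 0.0309).

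Srebf1 encodes SREBP-1, whose 1c form drives fatty acid synthesis and is a direct LXR target. It measured 5.74, 5.94 and 5.70 in db/db, against 5.50, 5.50 and 5.42 in db/m. The groups lay close but apart, with a difference of 0.32 (SE 0.09). The probe set carries the gene symbol alone, so SREBP-1a and SREBP-1c transcripts were not told apart. Without db/db replicate 3 the differences of Srebf1, Abca1 and Mylip were 0.37, 0.63 and 0.47.

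Nr1h3 encodes LXR alpha, the receptor found mainly in liver, fat, kidney and macrophages, and it can raise its own transcription in human cells and in mouse fat. It measured 7.01, 7.07 and 7.04 in db/db, against 7.27, 7.14 and 7.45 in db/m. The db/db arrays were tightly grouped below all lean arrays, with a difference of -0.25 (SE 0.11; limma adjusted p = 0.337). Lpcat3, an enzyme that places polyunsaturated chains into phospholipids and an LXR target in liver and gut, measured 10.29, 10.34 and 10.44 in db/db, against 10.38, 10.42 and 10.39 in db/m. Its difference was -0.04 with a 95% interval of -0.22 to 0.14, which spans folds of 0.859 to 1.1.

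Markers of other cells were measured beside these genes. Macrophages express Abca1, Abcg1, Apoe and Nr1h3, and 16 of 18 macrophage and dendritic cell markers were tested. Their mean level ran from 5.47 to 5.55 in db/db, against 5.60 to 5.65 in db/m, and their summed intensity from 1247 to 1464, against 1516 to 1539. Marker levels lay lower in db/db, with 0 of 16 past the threshold in limma and 4 at an unadjusted p under 0.05. Nr1h3 also lay lower in db/db, and Apoe, Abca1 and Abcg1 lay higher. The macrophage markers' part in any of these differences was not tested.

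Adipocyte markers, of which 9 of 10 were tested, overlapped between the groups in their mean, at 5.22 to 5.47 in db/db, against 5.10 to 6.02 in db/m. Of the 9, 2 lay above and 7 below 0, with 0 past the threshold in limma and 1 at an unadjusted p under 0.05. Plin4, named after its values were seen, measured 5.06, 4.93 and 5.79 in db/db, against 3.93, 4.79 and 4.46 in db/m. The 6.02 belonged to db/m replicate 2, in which the fat genes Cidec and Retn measured 5.56 and 5.60, against 3.34 and 3.72 for Cidec and 3.22 and 3.28 for Retn in the other lean arrays. This array also held the highest lean values of Abcg1 and Apoe, and without it the differences of db/db from db/m were 0.55 for Abcg1 (limma adjusted p = 0.106) and 0.81 for Apoe (adjusted p = 0.0474). The adipocyte markers' part in the differences of the 7 genes was not tested. All 6 podocyte markers tested had differences above 0, with 0 past the threshold in limma and 3 at an unadjusted p under 0.05. Their mean ran from 6.42 to 6.48 in db/db, against 6.20 to 6.40 in db/m, without overlap. The podocyte markers' part in the differences of the 7 genes was not tested. Of the 8 mesangial and smooth muscle markers 6 lay above 0, 3 had an unadjusted p under 0.05 and 1, Rgs5, rose (0.64, limma adjusted p = 0.0233). The mean of the 8 ran from 7.20 to 7.40 in db/db, against 7.10 to 7.16 in db/m, without overlap, and their part was not tested either. Of 6 liver markers 5 lay above 0 and 0 passed in limma, with 1 at an unadjusted p under 0.05: Ttr, the transthyretin gene, named after its values were seen, measured 6.35, 6.11 and 6.85 in db/db, against 5.60, 5.52 and 5.72 in db/m (0.82, adjusted p = 0.204). The liver list averaged 5.86 to 5.94 in db/db, against 5.46 to 5.92 in db/m, and its part in the rise of Apoe was not tested. Of 10 adrenal cortex markers 5 were tested, 2 above and 3 below 0, with 0 past the threshold in limma and 2 at an unadjusted p under 0.05. These 2 were Mc2r, the corticotropin receptor, at 3.21, 3.26 and 3.62 in db/db, against 2.91, 2.97 and 3.16 in db/m, and its partner Mrap, at 3.995, 4.08 and 4.34 in db/db, against 3.66, 3.91 and 3.86 in db/m. The mean of the 5 ran from 3.59 to 3.73 in db/db, against 3.51 to 3.61 in db/m. Cyp11b1, a defining steroid hydroxylase of that gland, measured 2.17, 2.20 and 2.20 in db/db, against 2.13, 2.11 and 2.18 in db/m, all under the filter of 2.65, and the adrenal markers' part was not tested. Proximal tubule markers, 12 of 12 tested, averaged 11.12 to 11.30 over all 9 arrays, the check of the labelled kidney cortex. Between db/db and db/m 7 of the 12 lay above and 5 below 0, with 0 past the threshold in limma and 3 at an unadjusted p under 0.05. Kap, named after its values were seen, measured 10.99, 10.95 and 10.74 in db/db, against 11.70, 11.71 and 11.87 in db/m. The part of these tubule markers was not tested.

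**Figure D2:**
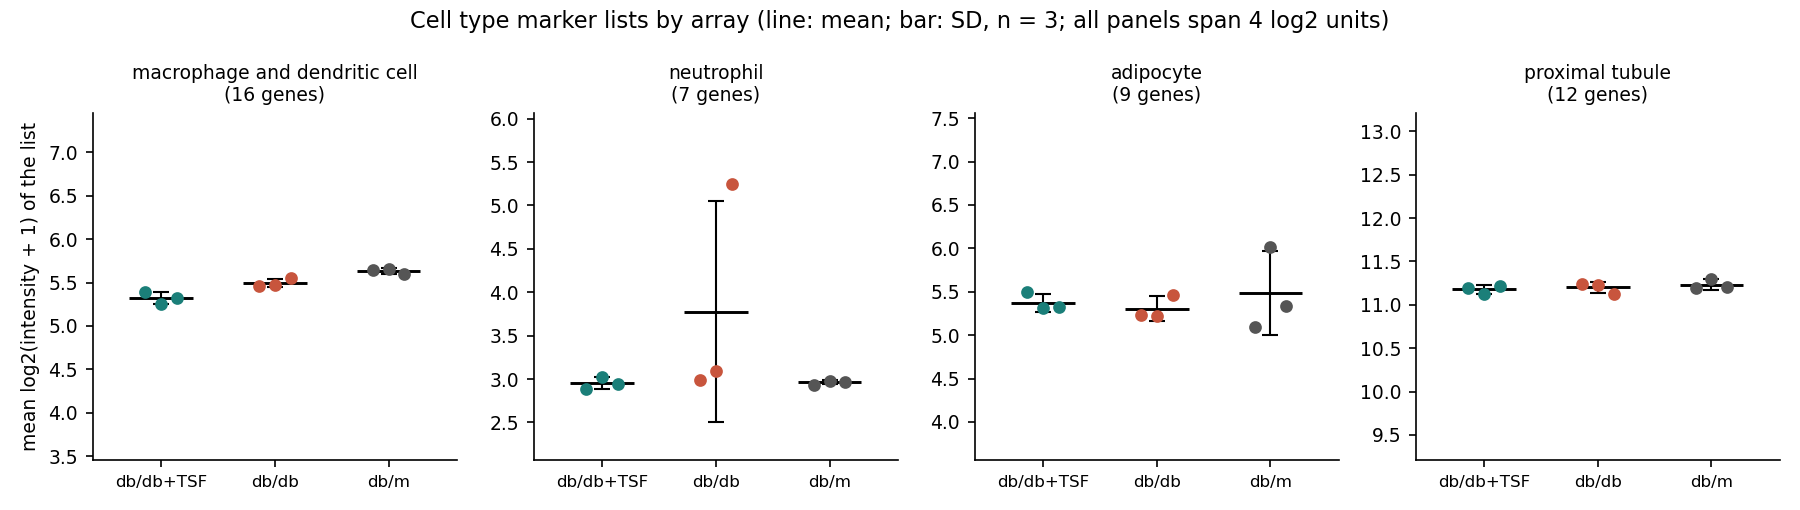
Mean log2(intensity + 1) of 4 marker lists in each array, for db/db+TSF, db/db and db/m from left to right; points are arrays, lines means and bars SD (n = 3). Macrophage and dendritic cell markers lie in 3 separate bands, lowest in db/db+TSF, and the neutrophil list is high only in db/db replicate 3.

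Under TSF, set against saline in mice of the same genotype, 0 of the 7 genes passed in limma, where 0% of all 17740 genes passed. At an unadjusted p under 0.05 the count was 1 of 7, Abcg1, against 11.7% of all genes (2079). The groups did not overlap in 2 of 7 (20.1% of all genes), Abcg1 and Srebf1, both lower in db/db+TSF, against 12.3% of all genes with db/db+TSF below; 0 of 7 lay above without overlap, against 7.81%. The difference was above 0 in 3 of 7 and in 43.9% of all genes. The median difference was -0.09 for the 7 genes and -0.02 for all genes.

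Abcg1 measured 5.46, 5.36 and 5.42 in db/db+TSF, against 5.69, 5.74 and 6.12 in db/db. The treated arrays lay close together and below every saline array. The difference was -0.44 (SE 0.12; limma adjusted p = 0.284), and without db/db replicate 3 it was -0.31 (adjusted p = 0.342). Srebf1 measured 5.57, 5.63 and 5.59 in db/db+TSF, against 5.74, 5.94 and 5.70 in db/db. The gap between the groups was small, and the difference was -0.20 with a 95% interval of -0.40 to 0.0025; without db/db replicate 2, the highest array, it was -0.12 (limma adjusted p = 0.739).

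For the other 5 genes the groups overlapped. The difference in Abca1 was 0.20, with a 95% interval of -0.20 to 0.60, after levels of 7.71, 7.88 and 7.56 in db/db+TSF and 7.27, 7.49 and 7.79 in db/db. Apoe differed by -0.16 (-0.45 to 0.13), with 5.93, 5.80 and 5.86 in db/db+TSF beside the db/db values above. Mylip differed by 0.08 (-0.18 to 0.34). Nr1h3 differed by -0.09 (-0.32 to 0.15). Lpcat3 differed by 0.02 (-0.16 to 0.20), and its sign turned under median scaling and quantile normalization. The widest of these intervals, that of Abca1, spans folds of 0.874 to 1.51. With 1 array left out the Abca1 difference ran from 0.08 (without db/db replicate 1) to 0.34 (without db/db replicate 3), and was 0.12 without db/db+TSF replicate 2. That of Apoe was -0.27 when db/db replicate 1 was dropped and -0.0023 when replicate 2 was. Macrophage and dendritic cell markers averaged 5.25 to 5.39 in db/db+TSF, against 5.47 to 5.55 in db/db, without overlap. Of the 16, 13 lay below and 3 above 0, where 43.9% of all genes lay above. In limma 0 of 16 passed and 5 had an unadjusted p under 0.05, against 11.7% of all genes. The part of these markers in the lower Abcg1 values was not tested.

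**Figure D3:**
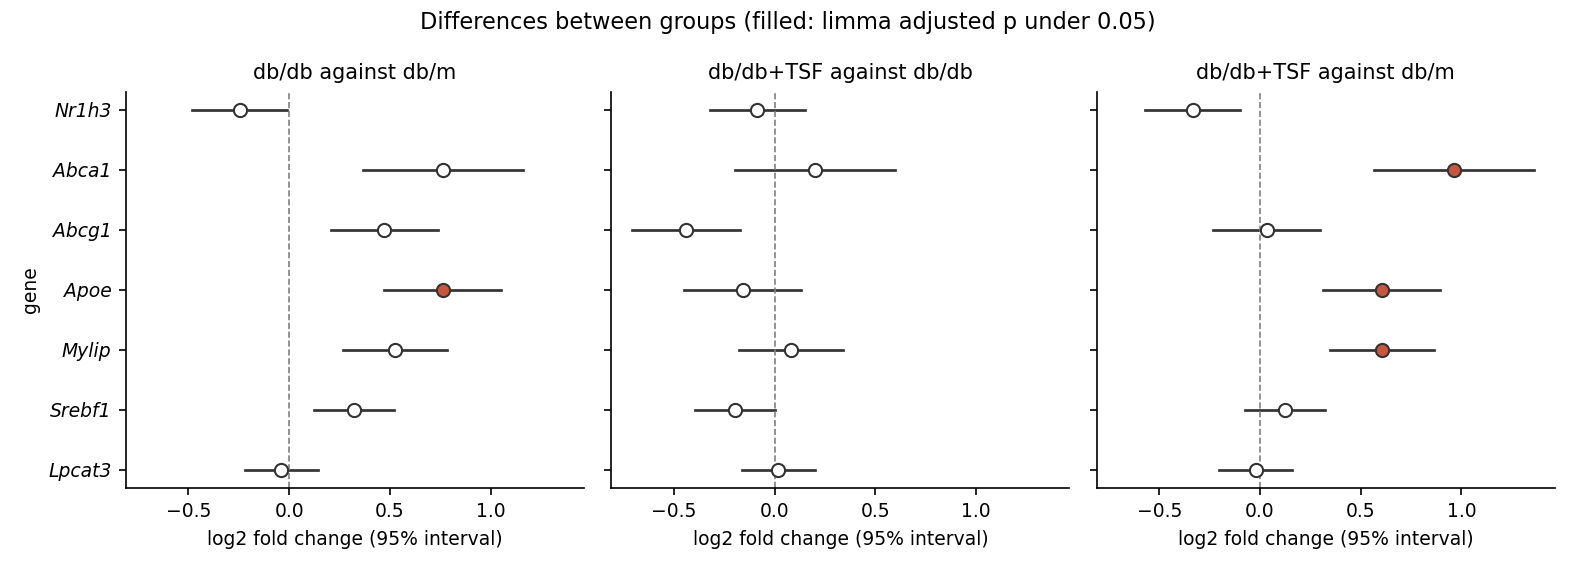
Log2 fold change of each gene (horizontal axis) with its 95% interval in the 3 comparisons; filled points have a limma adjusted p under 0.05. Apoe is filled in db/db against db/m, Abca1, Apoe and Mylip are filled in db/db+TSF against db/m, and no gene is filled between db/db+TSF and db/db.

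Treated diabetic cortex was also set against lean cortex, with the same lean arrays as above. Abca1, Apoe and Mylip rose: 3 of 7 were higher and 0 lower in limma, where 1.22% of all genes rose and 1.92% fell, and 4 of 7 had an unadjusted p under 0.05 (17.2% of all genes). Abca1 was 1.95-fold higher (0.96, SE 0.18; limma adjusted p = 0.0168), with treated arrays at 7.56 to 7.88, against 6.35 to 6.99 in db/m. Apoe was 1.52-fold higher (0.61, SE 0.13; adjusted p = 0.0338), with 5.80 to 5.93 in db/db+TSF, against 5.12 to 5.35 in db/m. Mylip measured 9.37, 9.59 and 9.37 in db/db+TSF, against 8.71, 8.73 and 9.07 in db/m, and was 1.52-fold higher (0.61, SE 0.12; adjusted p = 0.0207). In each of the 3 genes all treated arrays stood above all lean arrays.

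Abcg1 differed by 0.03 between db/db+TSF and db/m (95% interval -0.23 to 0.30, limma adjusted p = 0.922), with 5.36 to 5.46 in db/db+TSF, against 5.30 to 5.52 in db/m, and the sign turned under median scaling. Srebf1 was 0.13 higher without overlap and without passing (adjusted p = 0.53). Nr1h3 measured 7.11, 6.82 and 6.95 in db/db+TSF, against 7.27, 7.14 and 7.45 in db/m, all treated arrays below all lean ones, and its difference of -0.33 (SE 0.11) did not pass (adjusted p = 0.134). Lpcat3 differed by -0.02 (-0.20 to 0.16). The groups did not overlap in 5 of 7 (22.1% of all genes), in 4 with db/db+TSF above and in 1 with db/db+TSF below, against 9.76% and 12.4% of all genes. The difference was above 0 in 5 of 7 and in 50% of all genes.

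The Abca1 call was lost without db/db+TSF replicate 2 (limma adjusted p = 0.0695). The Apoe call was lost without any of the db/m or db/db+TSF arrays (0.0588 to 0.114), and the Mylip call without db/m replicate 1 (0.0786), db/m replicate 2 (0.0659), db/db+TSF replicate 2 (0.0868) or db/db+TSF replicate 3 (0.0578). Macrophage markers averaged 5.25 to 5.39 in db/db+TSF, against 5.60 to 5.65 in db/m, and 5 of 16 fell: Adgre1, Cd68, Csf1r, Tyrobp and Fcer1g. Nr1h3 lay on the same side as these markers and Abca1, Apoe and Mylip on the other. The macrophage markers' part in any of these differences was not tested. Podocyte markers averaged 6.47 to 6.56 in db/db+TSF, against 6.20 to 6.40 in db/m, with 0 of 6 past the threshold in limma and 4 at an unadjusted p under 0.05, and their mean did not overlap between the groups. Of the 8 mesangial and smooth muscle markers 5 lay above and 3 below 0, 2 had an unadjusted p under 0.05 and Rgs5 rose (0.60, limma adjusted p = 0.0161). Their list mean overlapped, at 7.11 to 7.32 in db/db+TSF, against 7.10 to 7.16 in db/m. Liver markers averaged 5.69 to 6.002 in db/db+TSF, against 5.46 to 5.92 in db/m, with 4 of 6 above 0, 0 past the threshold in limma and 2 at an unadjusted p under 0.05. Adipocyte markers averaged 5.31 to 5.49 in db/db+TSF, against 5.10 to 6.02 in db/m, with 0 of 9 past the threshold in limma and 2 at an unadjusted p under 0.05. Of the 12 proximal tubule markers 8 lay above and 4 below 0, 4 had an unadjusted p under 0.05 and 1 fell in limma. The part of these lists in the rises of Abca1, Apoe and Mylip was not tested.

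Genes around the pathway were grouped in 9 lists by role, of whose 128 genes 109 were tested. Between db/db and db/m 3 of the 109 rose and 4 fell (6.42%, where 1.05% of all genes tested passed either way). Between db/db+TSF and db/db 0 passed. Between db/db+TSF and db/m 4 rose and 4 fell (7.34%, where 3.13% of all genes passed). The lists were chosen with earlier results of these data known, so shares above those of all genes do not test the pathway. The 109 had median differences of 0.02, -0.06 and -0.01 in these comparisons, beside 0.01, -0.02 and 0.00 for all genes.

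**Figure D4:**
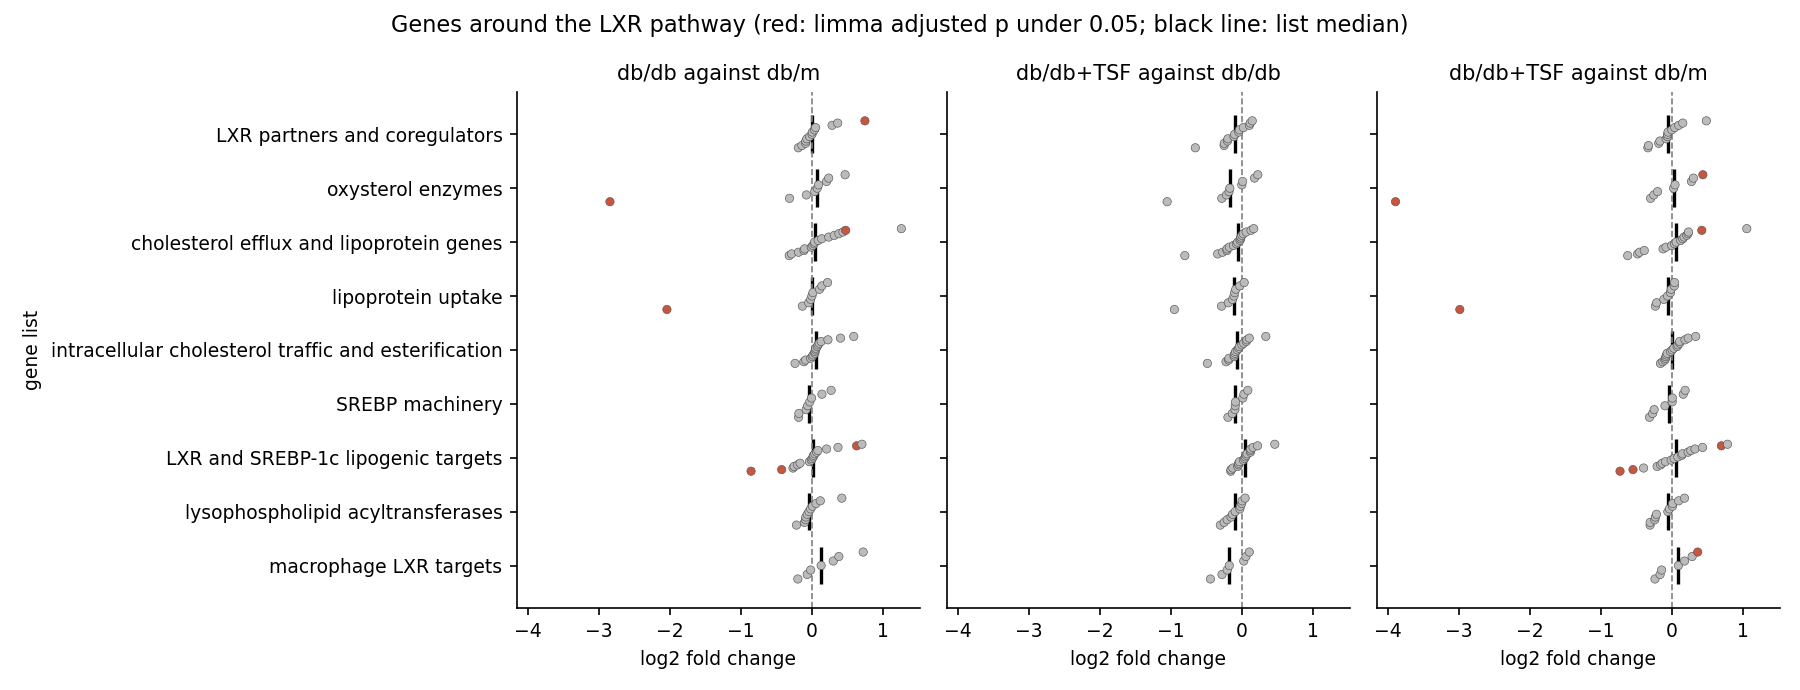
Log2 fold change (horizontal axis) of each gene tested in the 9 lists, in the 3 comparisons; red points have a limma adjusted p under 0.05 and black lines are list medians. The medians lie near 0, and the points farthest from it are the falls of Cyp7b1 and Cd36.

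Among 13 LXR partners and coregulators tested, Prox1, a homeobox factor that can repress nuclear receptors, was the one that passed. It measured 5.22, 5.07 and 5.39 in db/db, against 4.54, 4.45 and 4.43 in db/m (0.75, SE 0.13; limma adjusted p = 0.0233), and db/db+TSF arrays were at 4.83, 4.34 and 4.56. Its difference between db/db+TSF and db/db, -0.65, did not pass (adjusted p = 0.19). The RXR genes Rxra and Rxrb, named after their values were seen, differed by -0.19 and -0.08 between db/db and db/m with overlapping groups. In db/db+TSF Rxrb ran from 6.73 to 6.85, below all arrays of db/db (6.92 to 7.13) and of db/m (7.02 to 7.26). It passed in neither comparison, and the treated Rxra arrays, at 8.77 to 8.95, overlapped both other groups.

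Of 9 enzymes that make or clear oxysterols, the LXR ligands, Cyp7b1 fell. This hydroxylase, which inactivates oxysterols, measured 6.70, 7.36 and 6.82 in db/db, against 10.01, 9.53 and 9.87 in db/m (-2.84, SE 0.39; limma adjusted p = 0.00726). In db/db+TSF it measured 6.40, 4.74 and 6.58, a further difference of -1.05 from db/db that did not pass (adjusted p = 0.357). Without db/db+TSF replicate 2, the array at 4.74, the Cyp7b1 difference from db/db was -0.47 (adjusted p = 0.649). Cyp27a1, the mitochondrial enzyme that makes an LXR-activating oxysterol, passed in db/db+TSF against db/m, at 9.24, 9.20 and 9.22 against 8.62, 8.84 and 8.88 (0.44, SE 0.10; adjusted p = 0.0447). Its difference between db/db and db/m was 0.21 (adjusted p = 0.39). Sult2b1, a sterol sulfotransferase, had the smallest p of the list between db/db+TSF and db/db (-0.28; adjusted p = 0.317). Its levels were near the filter of 2.65, at 2.92, 2.95 and 2.96 in db/db+TSF, against 3.11, 3.22 and 3.35 in db/db.

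Of 17 other efflux and lipoprotein genes, Abca5, a lysosomal ABC transporter, rose in db/db against db/m (0.48, SE 0.10; limma adjusted p = 0.0459) and in db/db+TSF against db/m (0.42; adjusted p = 0.0413). It measured 6.41, 6.29 and 6.38 in db/db, against 5.97, 5.93 and 5.74 in db/m. Apoc1, an apolipoprotein gene close to Apoe on the chromosome in the RefSeq table and named after its values were seen, measured 6.62, 7.57 and 6.24 in db/db, against 5.38, 5.70 and 5.54 in db/m. The groups did not overlap, but the db/db arrays were widely spread and the difference of 1.27 (SE 0.32) did not pass (adjusted p = 0.0906); that of db/db+TSF against db/m was 1.06 (adjusted p = 0.104). Lpl, lipoprotein lipase, had the smallest p of the list between db/db+TSF and db/db (-0.34; adjusted p = 0.415).

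Of 9 lipoprotein uptake genes Cd36, a scavenger receptor and fatty acid carrier, fell to 7.98, 8.03 and 7.96 in db/db, against 9.91 to 10.16 in db/m (-2.04, SE 0.29; limma adjusted p = 0.0084). It measured 7.52, 6.11 and 7.49 in db/db+TSF, and the Cd36 difference from db/db was -0.95, or -0.48 without db/db+TSF replicate 2 (adjusted p = 0.289 and 0.482). Of 17 genes of cholesterol traffic and esterification 0 passed in limma in any comparison, with 3, 2 and 1 at an unadjusted p under 0.05. Stard4, a sterol carrier, had the smallest p of these genes in both comparisons with db/db, at 6.51, 6.49 and 6.58 in db/db, against 6.12, 6.17 and 5.52 in db/m (0.59; adjusted p = 0.0974). Its db/db+TSF values were 5.95, 6.10 and 6.09, below all db/db arrays (-0.48; adjusted p = 0.293).

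Of 8 genes of the SREBP machinery 0 passed in limma in any comparison, with 1, 0 and 3 at an unadjusted p under 0.05. Those of smallest p were Mbtps2 in db/db against db/m (0.28; adjusted p = 0.318) and Mbtps1 between db/db+TSF and db/db (-0.19; adjusted p = 0.448), the proteases that release SREBPs. Of 18 lipogenic targets of LXR and SREBP-1c, Elovl6, a fatty acid elongase, rose in db/db (0.63, SE 0.13; limma adjusted p = 0.0458), and malic enzyme Me1 (-0.85, SE 0.11; adjusted p = 0.00677) and the desaturase Fads1 (-0.42, SE 0.09; adjusted p = 0.0465) fell. The same 3 genes passed in db/db+TSF against db/m, at 0.70, -0.73 and -0.54. Fasn and Scd1, fatty acid synthase and stearoyl-CoA desaturase, named after their values were seen, differed by -0.26 and -0.25 in db/db against db/m and did not pass (adjusted p = 0.562 and 0.853). Between db/db+TSF and db/db the smallest p of the list was that of Thrsp, a lipogenic regulator (0.47; adjusted p = 0.36).

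Of 11 lysophospholipid acyltransferases related to Lpcat3 by function, 0 passed in limma in any comparison, with 1, 1 and 2 at an unadjusted p under 0.05. Mboat2 (0.43; adjusted p = 0.32) led in db/db against db/m and Lpcat1 (-0.30; adjusted p = 0.284) between db/db+TSF and db/db. Of 7 further LXR targets known from macrophages, Mertk, a receptor for uptake of dying cells, rose in db/db+TSF against db/m (0.37, SE 0.08; limma adjusted p = 0.0423), with 8.52, 8.48 and 8.47 in db/db+TSF, against 8.10, 8.19 and 8.07 in db/m. Its difference of 0.31 in db/db against db/m did not pass (adjusted p = 0.125). For db/db+TSF and db/db the smallest p was that of Abca9, an ABC transporter gene (-0.28; adjusted p = 0.415). Several calls of these lists did not outlast the loss of an array. Those between db/db and db/m of Abca5, Elovl6 and Fads1, and that of Abca5 between db/db+TSF and db/m, were lost whichever of the 9 arrays was left out. The calls of Cyp27a1 and Mertk between db/db+TSF and db/m were each lost in 8 of 9 such fits, that of Prox1 between db/db and db/m in 5 of 9 and that of Elovl6 between db/db+TSF and db/m in 3 of 9. Those of Cyp7b1, Cd36 and Me1 in both comparisons, and of Fads1 between db/db+TSF and db/m, were lost in 0 of 9. Over all 19 changes of settings described below, the Cyp7b1, Cd36 and Me1 calls were each lost in 1, in both comparisons. That Fads1 call was lost in 0.

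The genes whose pattern over the 9 arrays was most like that of the 3 genes that rose were found by Pearson's r among 15595 other named genes, as a description; the arrays fall into groups, so a shared difference between groups raises r. Apoe was most like Cpeb3 (r = 0.981, rho = 0.85), Myo3b (r = 0.981, rho = 0.9) and Cadm4 (r = 0.968, rho = 0.983). Abca1 was most like Heph (r = 0.973, rho = 0.85), Eno2 (r = 0.971, rho = 0.95) and Nuak2 (r = 0.969, rho = 0.967). Mylip was most like Kcnj10 (r = 0.972, rho = 0.9), Blnk (r = 0.968, rho = 0.9) and Vegfd (r = 0.966, rho = 0.917). Of the 7 LXR genes none was among the 3 most like another.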

How the data were processed

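Kidney cortex RNA of 9 arrays in 3 groups was analysed from the deposited value table, whose columns carry the sample names. The deposited values are intensity values on a linear scale, 1 per probe set and array; per the submitters' processing notes they were made with Affymetrix Expression Console and Transcriptome Analysis Console, with background correction and normalization settings not given in the sources used here, so an upstream scaling can have moved all values. No detection calls were used, and the number of arrays limits the precision.

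Of 41345 probe sets, 23521 had 1 gene symbol in the platform annotation, 1814 had several and the rest had none. The brightest single-symbol probe set stood for each of 22180 genes, values were transformed as log2(value + 1), and 17740 genes were kept whose mean reached 2.65, the 30th percentile over probe sets. With limma (3.58.1, R 4.3.3) the 3 group means were fitted on the 9 arrays jointly (eBayes without trend) and p-values were Benjamini-Hochberg adjusted over all genes; the fit was tested on simulated data.

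The genes, the lists and the markers were chosen with earlier results of these data known. Named from each list were the genes past the threshold and, where none passed between db/db and db/m or between db/db+TSF and db/db, the gene of smallest p; genes named otherwise are said to be so. Alternatives covered the probe set, filter, scaling, pseudocount, variance model, arrays in the fit, a replicate block and leaving out each array.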

Additional observations from a re-analysis of the deposited data

How the results depend on the processing

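Settings were changed 1 at a time over 19 alternatives. Of 1215 recomputed values of single genes, 1091 kept their direction and their side of the threshold and 111 kept the direction but no longer passed. A further 5 newly passed and 8 changed sign, and the cause was not tested. Most of the 64 gene results behind these values had not passed to begin with and had no call to lose. The counts thus do not measure how stable the calls were. The Apoe call was lost in 5 of 19 alternatives between db/db and db/m, and in 7 between db/db+TSF and db/m. In the latter comparison the Mylip and Abca1 calls were lost in 5 and 2. For TSF set against saline, no alternative called any gene. Between db/db and db/m all genes called numbered 187, and 26 without moderation; leaving out 1 array gave 72 to 194, with 86, 122 and 109 when db/m replicate 1, 2 or 3 was dropped, 72, 121 and 82 for db/db replicate 1, 2 or 3, and 116 for db/db+TSF replicate 3. Of the 7 genes 1 passed, 2 with an intensity trend (Apoe and Mylip), 0 without moderation, 0 with only the 2 groups compared (Apoe adjusted p = 0.0601 in limma) and 0 to 1 after leaving out an array. Between db/db+TSF and db/m the count was 556, 73 without moderation and 213 to 563 after leaving out an array, with 220 and 370 when db/m replicate 1 or 2 was dropped and 224 and 213 for db/db+TSF replicate 2 or 3. Of the 7 genes 3 passed there, 0 without moderation and 0 to 3 after leaving out an array (1 each for db/m replicate 1 or 2 and db/db+TSF replicate 3, 0 for db/db+TSF replicate 2). The values that changed sign all lay near 0. Between db/db+TSF and db/db, Lpcat3 was -0.0405 under median scaling, -0.00992 under quantile normalization and -0.0147 to 0.0604 with 1 array left out, and Abca5 was 0.00824 under quantile normalization and -0.0904 to 0.00096 with 1 array left out. Between db/db+TSF and db/m, Abcg1 was -0.0115 under median scaling and -0.00582 to 0.106 with 1 array left out, and Prox1 was -0.026 to 0.218. Deviations of same-numbered arrays correlated between -0.0791 and 0.146, and those of differently numbered arrays between -0.164 and 0.156. No pairing by number was seen, but 3 arrays a group are too few to exclude it. With the number as a replicate block, 137 genes passed between db/db and db/m, 0 between db/db+TSF and db/db and 434 between db/db+TSF and db/m. Of the 7 genes 1, 0 and 3 passed.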
